A study of Mus musculus with 10 samples.

Results

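The genes for chemokines and for their receptors were compared between old and young mouse aortae, with ligands and receptors kept apart. Members were chosen by symbol alone, as every gene named Ccl, Cxcl, Ccr, Cxcr or Ackr with a number, together with *Cx3cl1*, *Cx3cr1*, *Xcl1* and *Xcr1*. This gave 62 of the 55453 gene symbols in the table, of which 40 are ligand genes and 22 are receptor genes. Among the ligand genes, *Cxcl11* is annotated as a polymorphic pseudogene. RNA was sequenced from the whole aorta of 10 male C57BL/6 mice, 5 young mice aged 14.5 weeks and 5 old mice aged 92.5 weeks, with 1 library per mouse. No treatment is named for any mouse, and all mice were sacrificed at the same time and had the periadventitial fat removed from the vessel. Each sample therefore held all layers of the aortic wall, and in such bulk RNA fewer cells of a type and less RNA per cell cannot be told apart.

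Chemokines are small secreted proteins that guide leukocytes by binding to G protein-coupled receptors on their surface. They bind to heparan sulfate chains on endothelium and matrix, which holds them in place along the vessel wall. Inflammatory chemokines are made by macrophages, fibroblasts, smooth muscle and endothelium after a stimulus, while homeostatic chemokines such as *Cxcl12* are made at rest. Atypical receptors bind chemokines without G protein signalling, and most of them take up and degrade their ligands.

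The 10 libraries held 19640401 to 22886153 counts on genes. In the old aorta 2 the mitochondrial share of counts was 11%, against at most 6.51% in the other 9 libraries. The summed levels of 6 smooth muscle markers, in counts scaled to the library total (CPM), were 36436 to 41070 in young and 32812 to 39517 in old aortae, and none of these markers was at 0. Of the 62 members, 7 had no count in any library, 28 had counts that were too low for the test, and 27 were tested. The tested members were 18 ligands and 9 receptors. *Ccl12* passed the filter on low counts mainly through the old group, since 1 of 5 young libraries and all 5 old libraries reached its level, and *Ccl2* and *Ccl7* reached it in 3 and 4 young libraries. The counts of called members below are therefore a description and no test of the family.

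Of the 18 tested ligands, 7 rose in old aortae and 0 fell (edgeR quasi-likelihood test, Benjamini-Hochberg adjusted p below 0.05 over all tested genes). Across all 14614 tested genes, 6.48% were called higher and 4.99% lower. At an unadjusted p below 0.05 there were 11 ligands higher and 0 lower, and DESeq2 likewise called 0 ligands lower. The 7 ligands were *Ccl2*, *Ccl7*, *Ccl8*, *Ccl11*, *Ccl12*, *Cx3cl1* and *Cxcl12*. The lowest old aorta was above the highest young aorta in 7 of the 18 tested ligands, as in 5.37% of all tested genes. They were the same 7 that were called, on the same values, so this is no further support. The median log2 fold change of the tested ligands was 0.71, beside 0.0034 over all tested genes, and 16 of 18 were above 0. Of the 9 tested receptors, 0 were called higher and 0 lower by edgeR, with 3 higher and 3 lower at an unadjusted p below 0.05. DESeq2 gave an adjusted p for 40 of the 62 members, not for every receptor. It called 5 receptors, among them *Cxcr6* higher and *Ackr2*, *Ackr3* and *Ackr4* lower. Of all its tested genes 7.24% were called higher and 6.33% lower. Without the filter on low counts, edgeR called 6 of the 55 members with a count higher, beside 3.40% of all genes higher and 5.72% either way.

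**Figure D1:**
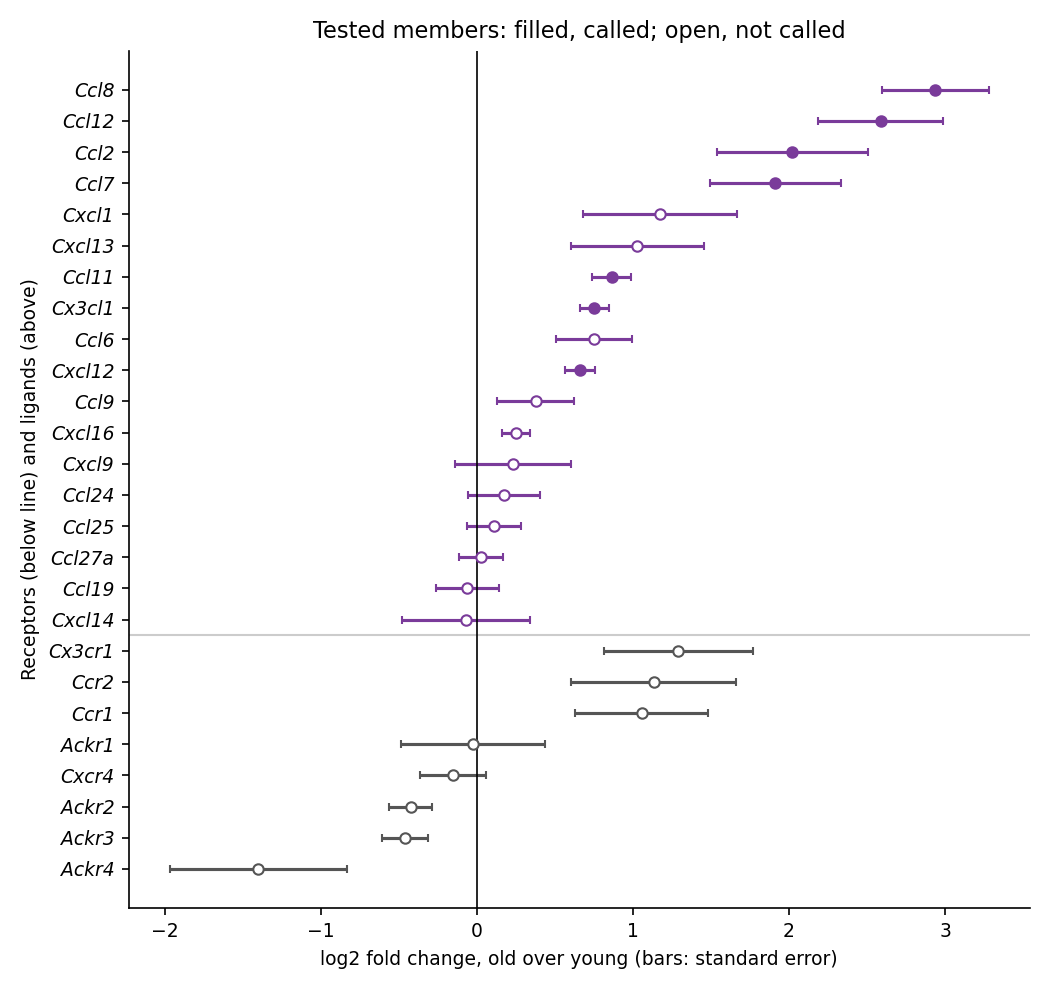
Log2 fold change of old over young aortae for the 18 tested ligands (above the line) and 8 of the 9 tested receptors (below it), with bars of 1 standard error and filled points for called members. The 7 filled points are all ligands and lie between 0.66 and 2.94, and the 4 atypical receptors lie at or below -0.03.

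The 4 largest fold changes among the tested members were those of the monocyte chemoattractant proteins. Their genes and that of eotaxin, *Ccl2*, *Ccl7*, *Ccl11*, *Ccl12* and *Ccl8*, lie in this order on the plus strand of chromosome 11 (GRCm38, 82035571 to 82116799), within 81.2 kb, and 5 of 5 rose. None of the 5 shares exonic sequence or a 50-base window with another annotated gene. The products of *Ccl2*, *Ccl7* and *Ccl12* attract monocytes through CCR2, and eotaxin, the product of *Ccl11*, attracts eosinophils. Mouse CCL8, despite its family name, is known to act on another receptor, CCR8.

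*Ccl8*, the gene of monocyte chemoattractant protein 2, had the largest fold change of the 27 tested members. Normalized counts were 36.8, 33.2, 26.9, 18.3 and 13.3 in young aortae 1 to 5 and 128, 335, 225, 121 and 176 in old aortae 1 to 5. Every old aorta was above every young one, and the highest old value was 2.75 times the lowest. The log2 fold change was 2.94 (SE 0.34, edgeR adjusted p = 0.000321, n = 5 per group).

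*Ccl12* is the gene of monocyte chemoattractant protein 5. The young aortae had 9.20, 8.05, 9.97, 3.86 and 3.07 normalized counts, and the old aortae 56.0, 38.1, 65.2, 22.2 and 25.3. The old aortae 4 and 5 were the lowest of the old group and still above all young aortae. Its log2 fold change was 2.59 (SE 0.40, edgeR adjusted p = 0.00126), on totals of 34 young and 210 old counts.

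The product of *Ccl2* attracts monocytes through the receptor CCR2. Its normalized counts were 24.5, 8.05, 20.9, 23.2 and 3.07 in the young and 74.0, 126, 48.5, 34.7 and 42.8 in the old aortae. The old aorta 2 was the highest, and even the lowest, the old aorta 4, was above the young aorta 1, the highest of the young. On the log2 scale the fold change was 2.02 (SE 0.48, edgeR adjusted p = 0.0195). This call was lost without the low-count filter, without the young aorta 2, and without the old aortae 2 and 3 together, where the adjusted p was 0.0729.

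*Ccl7* is the gene of monocyte chemoattractant protein 3. For the young aortae its normalized counts were 12.3, 11.1, 17.9, 12.6 and 3.07, and for the old aortae 63.0, 67.6, 38.2, 19.3 and 28.2. The groups did not overlap, but the old aorta 4 lay close to the young aorta 3. Its fold change on the log2 scale was 1.91 (SE 0.42, edgeR adjusted p = 0.0110), and the adjusted p was 0.0565 without the old aortae 2 and 3.

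*Ccl11* was the most abundant gene of the cluster. The young aortae had 416, 322, 305, 334 and 306 normalized counts and the old aortae 449.7, 679.97, 615, 577 and 726. The young aorta 1 stood above the other young aortae, and the old aorta 1 was the lowest of the old group. At 0.86, its log2 fold change was smaller than those of the other 4 genes of the cluster (SE 0.13, edgeR adjusted p = 0.000957).

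**Figure D2:**
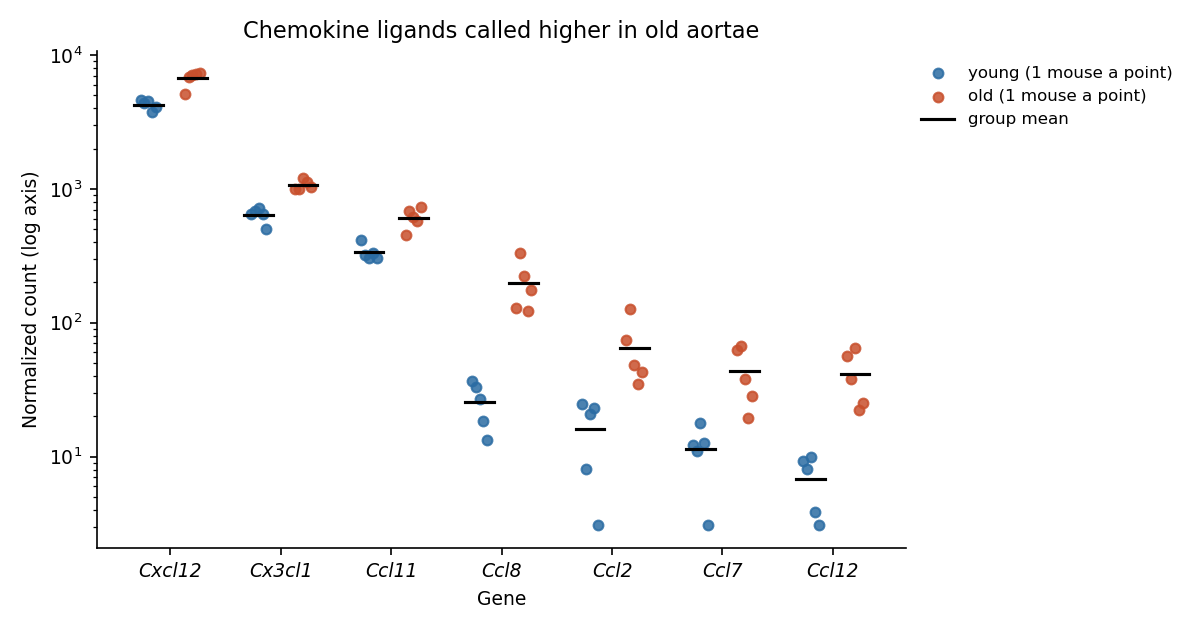
Normalized counts (log axis) of the 7 ligands called higher, with 1 point per mouse (5 young in blue, 5 old in orange) and a black line at each group mean. For each gene the 5 old points lie above the 5 young points, and the spread among mice is widest for *Ccl2* and *Ccl7* and narrow for *Cxcl12*, *Cx3cl1* and *Ccl11*.

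Further along chromosome 11, the next chemokine gene, *Ccl1*, had no count, and a second group of 5 genes begins 1220 kb beyond it. Its members *Ccl3*, *Ccl4* and *Ccl5* were too low for the test, and 0 of the 2 tested genes were called. The log2 fold change of *Ccl6* was 0.75 (SE 0.24, edgeR adjusted p = 0.0754), and that of *Ccl9* was 0.38 (SE 0.25, edgeR adjusted p = 0.371). Both encode macrophage chemokines that act on CCR1. In 3 of the 5 old mice the value was above the highest young value for *Ccl6*. DESeq2 called *Ccl6* higher, with an adjusted p of 0.00787, and so did edgeR without the old aorta 5.

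The sequence upstream of the start site was read for the members that rose, to show which letters they share. RefSeq promoters (GRCm38.p6) were found for 45 of the 62 members and for 4 of the 7 ligands that rose, *Ccl8*, *Ccl12*, *Cx3cl1* and *Cxcl12*. Shown are the 250 bases before the start of the 3 of these whose RefSeq start is also the GENCODE gene start. Those of *Cxcl10*, an interferon-induced ligand with 72 young and 37 old counts, are added as an example of a promoter with several matches. *Cxcl10* was below the filter on low counts and was not tested, so it does not stand for the ligands that were not called. Capitals mark matches to the motifs searched on both strands. These were AP-1 (TGANTCA), C/EBP (TTNNGCAA), a repeat bound by interferon regulatory factors (GAAA, any 2 bases, GAAA), STAT (TTCNNNGAA), the TATA box (TATAAA) and the NF-kB consensus.
Ccl8 (chr11:82114935-82115184, plus strand): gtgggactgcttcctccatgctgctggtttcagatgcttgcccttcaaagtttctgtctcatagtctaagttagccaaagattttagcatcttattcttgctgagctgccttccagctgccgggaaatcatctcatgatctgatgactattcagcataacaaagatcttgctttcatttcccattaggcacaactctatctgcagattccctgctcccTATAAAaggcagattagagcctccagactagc
Ccl12 (chr11:82101595-82101844, plus strand): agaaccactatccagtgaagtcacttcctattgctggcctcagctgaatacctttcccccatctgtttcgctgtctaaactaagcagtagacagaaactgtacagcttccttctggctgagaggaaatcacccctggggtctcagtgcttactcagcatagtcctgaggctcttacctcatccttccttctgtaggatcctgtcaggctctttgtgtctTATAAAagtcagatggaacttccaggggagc
Cxcl12 (chr6:117168285-117168534, plus strand): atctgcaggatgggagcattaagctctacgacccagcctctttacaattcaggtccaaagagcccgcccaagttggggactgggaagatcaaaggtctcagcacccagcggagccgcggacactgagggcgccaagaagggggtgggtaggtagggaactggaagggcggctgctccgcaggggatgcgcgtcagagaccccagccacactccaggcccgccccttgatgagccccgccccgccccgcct
Cxcl10 (chr5:92348890-92349139, minus strand): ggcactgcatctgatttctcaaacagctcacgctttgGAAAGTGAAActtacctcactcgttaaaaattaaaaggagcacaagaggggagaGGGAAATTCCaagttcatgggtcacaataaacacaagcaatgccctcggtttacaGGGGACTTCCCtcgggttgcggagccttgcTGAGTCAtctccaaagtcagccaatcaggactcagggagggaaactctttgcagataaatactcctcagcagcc

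*Ccl8* and *Ccl12* each held TATAAA, with its first base 32 and 31 bases before the start. *Cx3cl1* held it 6 bases before the RefSeq start, and *Cxcl12* held none of the 6 motifs in this window. The share of G and C was 44.8% for *Ccl8*, 48.4% for *Ccl12*, 64.8% for *Cx3cl1* and 64.4% for *Cxcl12*. TATAAA was in the same window of 12.4% of all 32851 promoters, and in 14 of the 45 members with a promoter. Among the tested ligands with a promoter that were not called, 4 of 9 held it. The NF-kB consensus was in 7.25% of all promoters, in 0 of the 4 ligands that rose, and in 2 of the 9 tested ligands with a promoter that were not called, *Ccl9* and *Cxcl1*. In *Cxcl10* it matched at 3 positions, 2 of which overlap, beside an AP-1 match and a match to the interferon regulatory factor repeat. AP-1 was in 6.75%, C/EBP in 9.56%, the interferon regulatory factor repeat in 2.98% and STAT in 7.02% of all promoters, and none of these was in the 4 ligands that rose. The shares over all promoters are per promoter, whereas a member counted where any of its promoters matched (52 promoters for the 45 members). A match is a string of letters, and binding was not measured.

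*Cxcl12*, the homeostatic ligand of CXCR4 and ACKR3, had the highest level per length of all ligands, at 24.0 ± 2.04 RPKM (reads per kilobase of exon, scaled to library size, mean ± SD, n = 5) in young and 38.1 ± 5.15 RPKM in old aortae. Normalized counts were 4627, 4348, 4517, 3741 and 4079 in young and 5119, 6847, 7136, 7206 and 7288 in old aortae. The old aorta 1 stood apart from the other 4 old aortae but above all young ones. The log2 fold change was 0.66 (SE 0.10, edgeR adjusted p = 0.000829). The gene lies on chromosome 6 (117168535 to 117181367, plus strand).

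*Cx3cl1* encodes fractalkine, a chemokine held on the cell membrane by a mucin-like stalk and released by metalloproteinases. Normalized counts were 653, 678, 725, 648 and 498 in young and 998, 1004, 1209, 1121 and 1035 in old aortae. The old group was the tightest of the 7 ligands, with its highest value 1.21 times its lowest. Its log2 fold change was 0.75 (SE 0.09, edgeR adjusted p = 0.000298), the smallest adjusted p among the members. The gene lies on chromosome 8 (94772009 to 94782427, plus strand). For *Cxcl16*, the other membrane-anchored chemokine, the log2 fold change was 0.25 (SE 0.09, edgeR adjusted p = 0.0873), and it was called without the old aorta 2. Of its exonic sequence 18.3% is overlapped by another gene.

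The other tested ligands were not called. Among neutrophil attractants that act on CXCR2, 1 of 5 was tested, and the log2 fold change of *Cxcl1* was 1.17 (SE 0.49, edgeR adjusted p = 0.153), with old values from 24.0 to 108 normalized counts. *Cxcl13*, which guides B cells, had 1.03 (SE 0.43, edgeR adjusted p = 0.146), and *Ccl19*, a ligand of CCR7 in lymphoid tissue, had -0.06 (SE 0.20). A second sequence copy shares 52.0% of the 50-base windows of *Ccl19*, so its counts are uncertain, as are those of *Ccl27a* with 45.0%. The log2 fold changes were 0.23 for *Cxcl9*, an interferon-induced ligand of CXCR3, 0.18 for *Ccl24*, an eotaxin, 0.11 for *Ccl25*, 0.03 for *Ccl27a* and -0.07 for *Cxcl14*. The small values turned sign when 1 mouse was left out, *Ccl25* without the old aorta 2, *Ccl27a* without the young aorta 5 or the old aorta 2 or 5, *Ccl19* without the young aorta 2 or the old aorta 1, and *Cxcl14* without the young aorta 3 or 4 or the old aorta 1, 4 or 5.

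Among the receptors, *Ackr3* had by far the highest level per length. It encodes a scavenger of CXCL12 and made up 78.7% of the summed RPKM of all receptors in young and 67.7% in old aortae. Its level was 27.4 ± 5.36 RPKM in young and 19.9 ± 3.73 RPKM in old aortae (mean ± SD, n = 5). Normalized counts were 2592, 1943, 2105, 1603 and 1713 in young and 1368, 1244, 1896, 1429 and 1250.3 in old aortae. Of the 5 old aortae 4 were below the lowest young aorta, and the old aorta 3 was the exception. With a value of -0.46 (SE 0.15, edgeR adjusted p = 0.0663) its log2 fold change did not pass the threshold. It passed with DESeq2 and with limma-voom, and also without the old aorta 3 or the young aorta 4, and the range of the adjusted p over all alternatives was 0.0143 to 0.170.

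The other 3 atypical receptors were also tested. *Ackr2*, a scavenger of inflammatory CC chemokines including those of the chromosome 11 cluster, ranged from 107 to 142 normalized counts in the young and from 69.0 to 107 in the old group. All 5 old aortae were below all 5 young ones, as in 4.55% of all tested genes, although the nearest values of the groups were nearly equal. The log2 fold change was -0.42 (SE 0.14, edgeR adjusted p = 0.0673), and it passed with DESeq2 (adjusted p = 0.0359) and without the old aorta 3. *Ackr4*, which takes up CCL19, CCL21 and CCL25, was at a log2 fold change of -1.40 (SE 0.57, edgeR adjusted p = 0.142). This value rested on the young aorta 1, which had 199 normalized counts against 19.3 to 49.2 in the other young aortae, and it was -0.49 without that aorta. Other genes overlap 8.90% of its exonic sequence. *Ackr1*, which binds chemokines on venular endothelium and red blood cells, had -0.03 (SE 0.46), with 129 normalized counts in the old aorta 2 against 22.2 to 43.8 in the other old aortae. Its log2 fold change was -0.71 without the old aorta 2 and above 0 without the young aorta 1 or the old aorta 1, 3, 4 or 5, up to 0.17, and 25.7% of its exonic sequence is overlapped by the gene *Cadm3*.

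**Figure D3:**
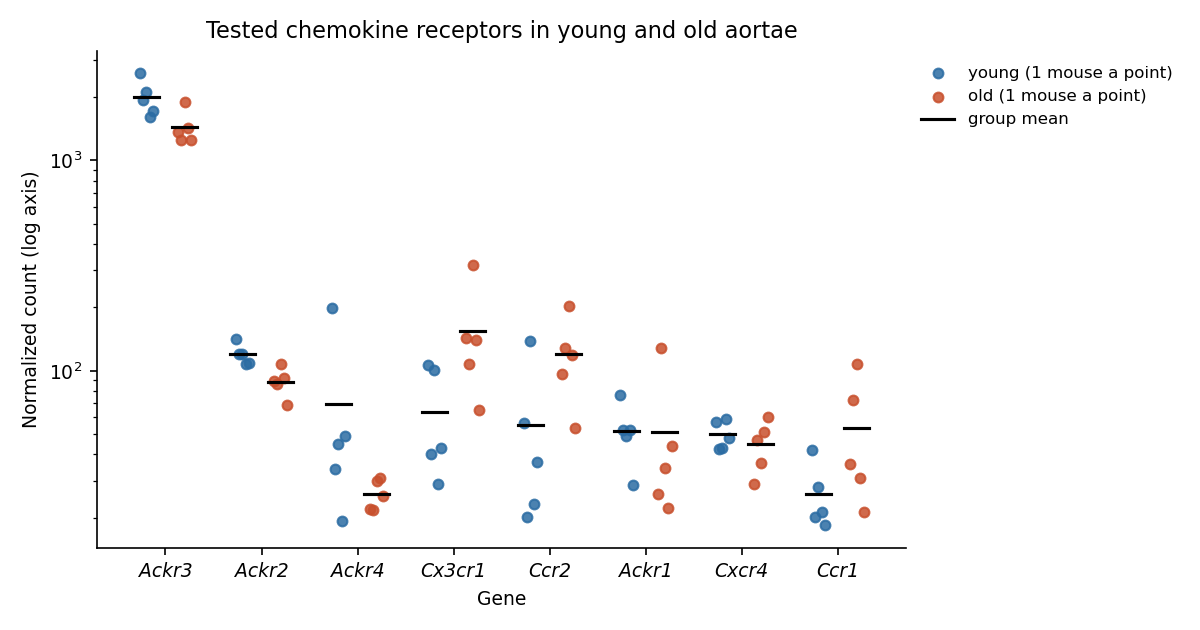
Normalized counts (log axis) of 8 of the 9 tested receptors, with 1 point per mouse (5 young in blue, 5 old in orange) and a black line at each group mean. The old points of *Ackr2* lie just below the young points, those of the other 7 receptors overlap with the young points, and single mice stand out for *Ackr4* and *Ackr1*.

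The conventional receptors of monocytes and macrophages had values above 0 that did not pass the threshold. *Cx3cr1*, the receptor of fractalkine, ranged from 29.0 to 106 normalized counts in the young and from 65.1 to 318 in the old group. Its log2 fold change was 1.29 (SE 0.48, edgeR adjusted p = 0.113). *Ccr2*, the receptor of CCL2, CCL7 and CCL12, ranged from 20.1 to 139 and from 53.5 to 202, with 1.13 (SE 0.53, edgeR adjusted p = 0.202). In both the old aorta 3 was the highest of the 10 and the old aorta 5 the lowest of the old group. *Ccr1* had 1.06 (SE 0.43, edgeR adjusted p = 0.135), and 0.18 without the old aortae 2 and 3. *Cxcr4*, the signalling receptor of CXCL12, had -0.15 (SE 0.21, edgeR adjusted p = 0.704). *Ccr2* was called without the young aorta 3 (edgeR adjusted p = 0.0174).

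The pattern over single mice differed between the groups of members. The old aorta 2 was the highest old library for 11 of the 18 tested ligands and for 3 of the 5 genes of the chromosome 11 cluster. The old aorta 3 was the highest old library for 6 of the 9 tested receptors, and the young aorta 1 was the highest young library for 7 of the 9. Among the cluster genes the old aorta 4 was the lowest old library for 4 of 5 and the young aorta 5 the lowest young library for 4 of 5. Without the old aortae 2 and 3, 5 ligands remained called, *Ccl8*, *Ccl11*, *Ccl12*, *Cx3cl1* and *Cxcl12*, and 954 of all genes.

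**Figure D4:**
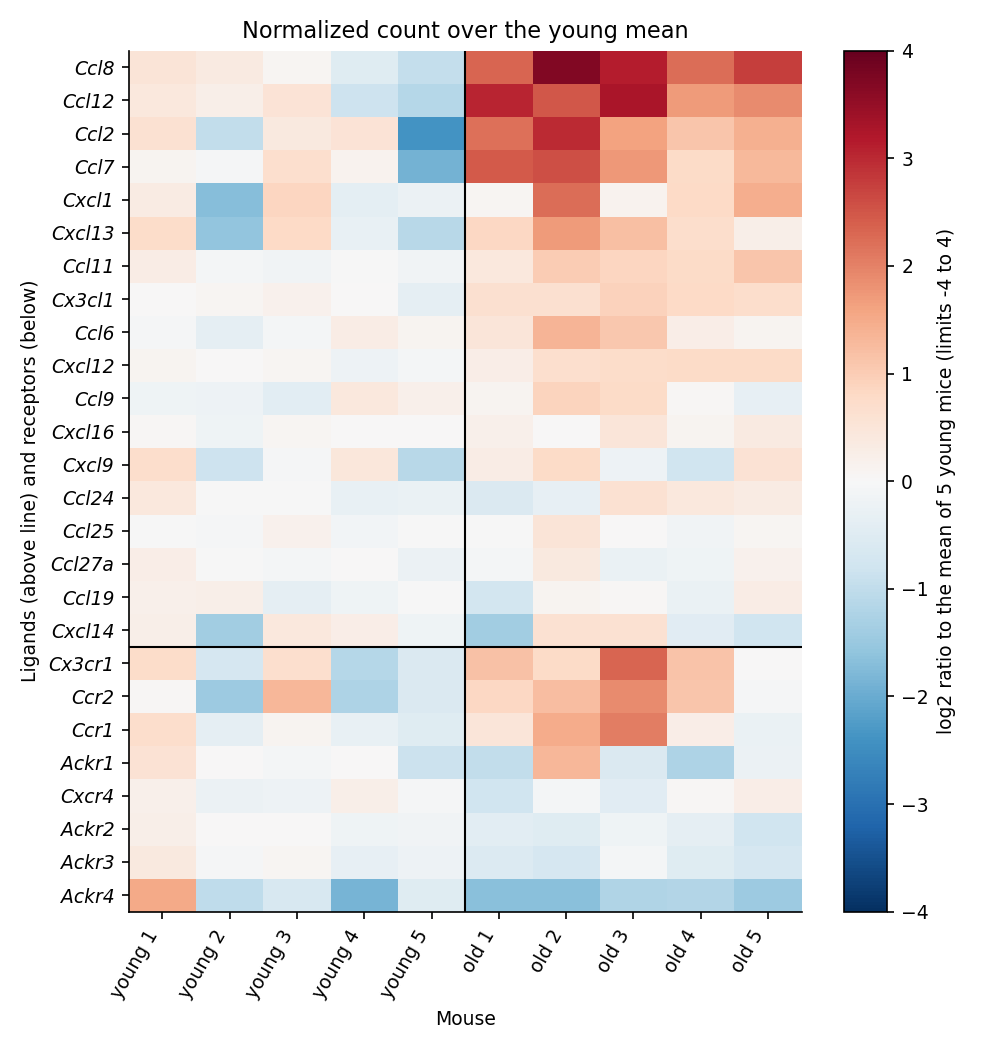
Log2 ratio of the normalized count in each mouse to the mean of the 5 young mice, for 26 of the 27 tested members (rows, ligands above the line) and the 10 mice (columns). Red is above and blue below the young mean. The 4 top rows are red in all old mice, with values up to 3.70 for *Ccl8*, and the receptors *Cx3cr1*, *Ccr2* and *Ccr1* are darkest in old mouse 3.

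Markers of leukocytes also differed between the groups. The summed CPM of 11 macrophage markers were 582 to 691 in young and 758 to 1292 in old aortae, with the highest value in the old aorta 3, and 6 of the 11 genes rose (exact two-sided permutation test of the sums, adjusted p = 0.0397 over 15 marker lists). That adjusted p comes from a raw p of 0.00794, the smallest that 5 against 5 mice can give. The same adjusted p was obtained for 5 pan-leukocyte markers, at 34.8 to 56.4 CPM in young and 56.6 to 135 CPM in old aortae, with 2 of 5 called. It was also obtained for 5 neutrophil markers, at 1.13 to 2.19 and 2.49 to 8.55 CPM, with the highest value in the old aorta 2. Only 1 of these 5, *Csf3r*, had enough counts for the edgeR test, and it was called. By the same exact permutation test the adjusted p was 0.0476 for 7 T cell markers, at 0.643 to 3.36 and 2.06 to 9.57 CPM. Of these, 3 had enough counts for edgeR and 2 were called. For 5 dendritic cell markers, at 18.5 to 31.3 and 29.7 to 33.4 CPM, the permutation test also gave an adjusted p of 0.0476. Here 3 had enough counts for edgeR and 1 was called. Across all genes tested with edgeR, 6.48% were called higher. By far the most abundant tested dendritic marker was *Zbtb46*, at a mean log2 CPM of 4.58, and it was not called (log2 fold change 0.26, edgeR adjusted p = 0.149). The called one, *Cd209a*, had a mean log2 CPM of 1.44. The part of leukocytes in the values of the chemokine genes was not tested.

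The remaining lists did not pass the threshold. Sums were 1.13 to 4.40 CPM in young and 3.53 to 13.3 CPM in old aortae for 5 monocyte markers, of which *Fcnb* had no count, and the exact permutation test gave an adjusted p of 0.0893. They were 0.631 to 4.52 and 1.97 to 18 CPM for 6 B and plasma cell markers, and 0.0450 to 0.486 and 0.0917 to 1.09 CPM for 5 natural killer cell markers. Endothelial markers summed to 807 to 1425 CPM in young and 425 to 984 CPM in old aortae, with 0 of 5 called (exact permutation test, adjusted p = 0.0794, and 0.0476 without the old aorta 2). Fibroblast markers summed to 4991 to 5961 and 4008 to 5421 CPM, with *Lum* called higher and *Col1a1* and *Pi16* lower. Sums for mast cells were 25.0 to 53.5 and 31.3 to 42.2 CPM, with 4 of 5 genes called higher and *Kit* lower. *Kit* weighed most in this sum, at a mean log2 CPM of 4.60 against 1.45 to 2.27 for the other 4. The lists of lymphatic endothelium (73.5 to 130 and 74.9 to 93.6 CPM), adipocytes (94.4 to 383 and 56.2 to 148 CPM) and red blood cells (31.4 to 168 and 36.3 to 205 CPM) had no called gene. Apart from *Fcnb*, every marker on the 15 lists had a count.

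Levels were then compared per length. In young aortae the order of the ligands began with *Cxcl12* (24.0 RPKM), *Ccl11* (14.4), *Ccl6* (11.7), *Cx3cl1* (7.52), *Cxcl16* (6.55) and *Ccl9* (5.48). *Ccl8* stood in place 10 with 2.32 ± 0.891 RPKM and *Ccl12* in place 14 with 0.587 ± 0.272 RPKM. In old aortae *Ccl8* stood in place 4 with 17.9 ± 7.99 RPKM, behind *Cxcl12* (38.1), *Ccl11* (26.1) and *Ccl6* (19.7 ± 7.68), and *Ccl12* stood in place 8 with 3.57 ± 1.63 RPKM. The old means of *Ccl6* and *Ccl8* were closer together than the SD of either, and the gap between *Ccl8* and *Cx3cl1* (12.7 ± 1.07 RPKM) was smaller than the SD of *Ccl8* but larger than that of *Cx3cl1*. Next after *Ackr3*, the receptors *Ackr2* (1.77 RPKM), *Ackr1* (1.70) and *Cxcr4* (1.27) were highest in young aortae, and *Ackr1* (1.69), *Cx3cr1* (1.598) and *Ackr2* (1.32) in old aortae, with SDs in the old group of 1.46 for *Ackr1* and 0.994 for *Cx3cr1*.

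**Figure D5:**
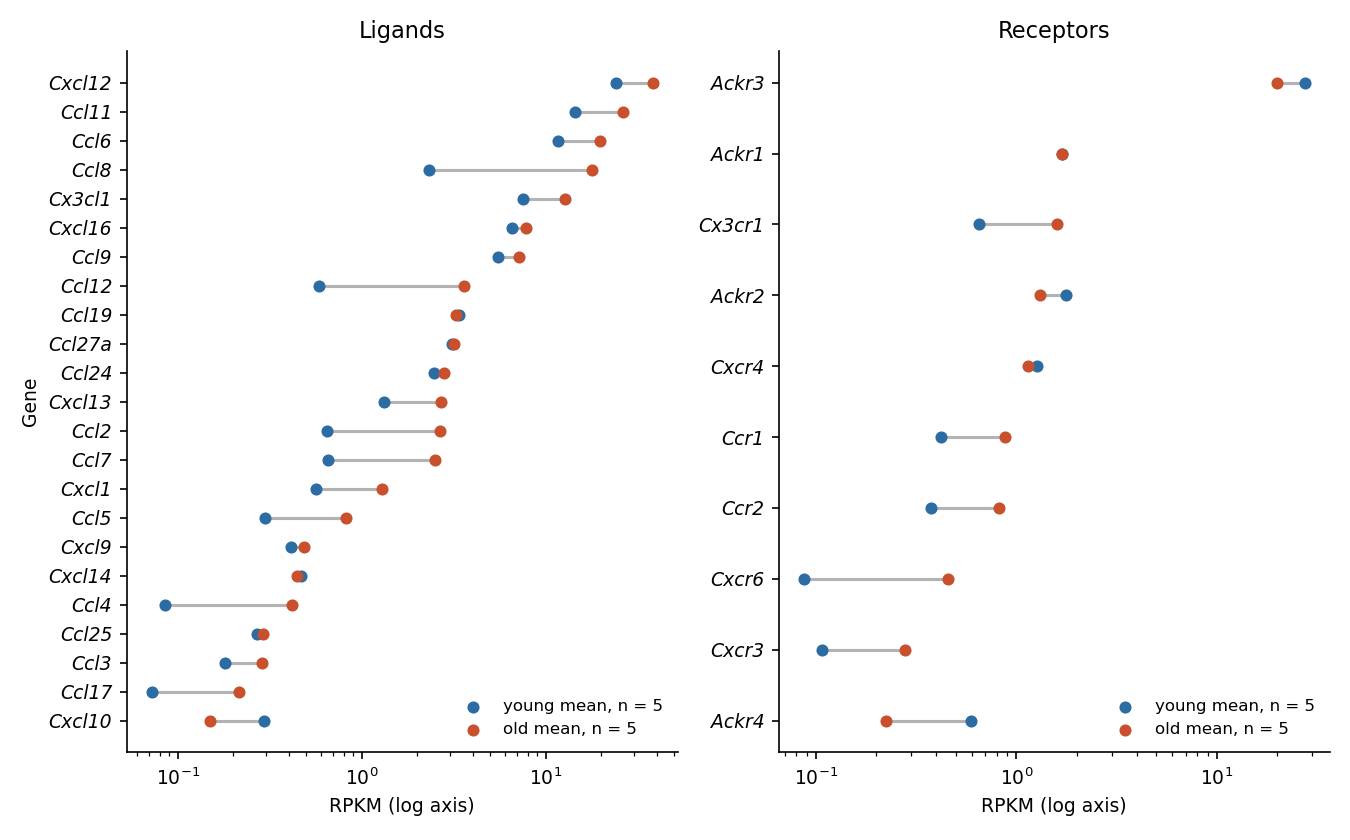
Mean RPKM (log axis) in young (blue) and old (orange) aortae, n = 5 each, for the 23 ligands and 10 receptors shown with a mean of at least 0.2 in either group. *Ccl8* moves from 2.32 to 17.9 among the ligands, and *Ackr3* is far above all other receptors in both groups.

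Ligands were then set beside the receptors they are known to bind, in 35 pairs. Both partners were tested in 8 pairs, and the ligand was called in 8 pairs, which are not all the same ones. Both were called in 0, which follows from edgeR calling no receptor and says nothing about the pairing. For *Cxcl12* (0.66) the log2 fold changes of the receptors were -0.15 for *Cxcr4* and -0.46 for *Ackr3*. For *Cx3cl1* (0.75) that of *Cx3cr1* was 1.29, and for *Ccl2*, *Ccl7* and *Ccl12* (1.91 to 2.59) that of *Ccr2* was 1.13, neither of which passed the test. *Ccr8*, the receptor known for mouse CCL8, had 3 counts in all young and 5 counts in all old libraries. *Ccr3*, the eotaxin receptor, had 5 and 11 counts. At this depth neither receptor could be compared.

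The 28 members below the filter had few counts, and 22 of them had more in the old than in the young group, 5 fewer and 1 the same number. More counts in old aortae were seen for 12 of the 13 receptors and 10 of the 15 ligands. The same share over all other genes below the filter was not computed, so these numbers only describe the members. Without the filter edgeR called 0 of the 28 (adjusted p below 0.05). *Cxcr6*, the receptor of CXCL16 on T cells, had 6, 1, 3, 1 and 7 counts in the young aortae and 9, 6, 57, 11 and 16 in the old. DESeq2 called it higher (adjusted p = 0.00933), while edgeR without the filter gave an adjusted p of 0.0743. *Ccl4* went from 6 to 30 counts in all (edgeR without the filter, adjusted p = 0.0655). *Ccr9* had a count in 1 of 5 young and in 5 of 5 old libraries, 1 and 12 counts in all, and other genes overlap 21.5% of its exonic sequence. *Cxcl10* went from 72 to 37 counts (log2 fold change -0.96, SE 0.72). The old aorta 3 was the highest old library for 10 of the 13 receptors below the filter, and these receptors had 164 counts there against 26 to 46 in the other old aortae. *Ccl1*, *Ccl20*, *Ccl21a*, *Ccl21c*, *Ccl27*, *Ccl27b* and *Cxcl3* had no count in 10 libraries, which allows a level of up to 0.0138 CPM over all libraries. Some of these symbols belong to near-identical copies, so that their counts are uncertain.

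Other genes of chemokine signalling were read from the same fit. Of 67 genes on 6 lists, 66 were tested, and 11 rose and 6 fell, beside 11.5% of all tested genes called either way. The median log2 fold change of the 66 was 0.08. Downstream of the receptors, 4 of 14 genes of the Rac-driven migration arm rose and 0 fell. *Pak1*, a kinase activated by Rac, went from 133 ± 14.7 to 258 ± 29.0 normalized counts (log2 fold change 0.97, SE 0.11, edgeR adjusted p = 0.000164). *Vav1* (1.11, SE 0.25) and *Dock2* (0.96, SE 0.21), which activate Rac in leukocytes, rose as well. In the PI3K, phospholipase and kinase arm 4 of 14 rose and 0 fell, among them *Pik3r5* (0.89, SE 0.20) and *Pik3cd* (0.54, SE 0.12), subunits of leukocyte PI3 kinases, and the Src family kinase *Fgr* (1.19, SE 0.28). *Arrb2*, a beta-arrestin, was the 1 of 13 tested genes of G protein and arrestin coupling that was called (0.43, SE 0.10).

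On the list of processing and capture, 1 of 10 genes rose and 4 fell. *Adam17*, a metalloproteinase that sheds fractalkine, fell from 1205 ± 42.2 to 899 ± 81.8 normalized counts (log2 fold change -0.41, SE 0.07, edgeR adjusted p = 0.00151). *Ext1*, an enzyme of heparan sulfate synthesis, fell by 0.44 on the log2 scale (SE 0.10), and *Sdc3*, a syndecan that carries heparan sulfate, rose by 0.66 (SE 0.11). The syndecans *Sdc1* (-0.42, SE 0.10) and *Sdc4* (-0.46, SE 0.13) fell. Of 10 inducers of chemokine transcription, *Irf7*, an interferon regulatory factor, rose (0.92, SE 0.25) and *Rel*, a subunit of NF-kB, fell (-0.41, SE 0.12). *Ccrl2*, a chemokine receptor-like gene outside the symbol rule, fell (-0.46, SE 0.10), the 1 call among 5 such genes and platelet chemokines. Without the old aortae 2 and 3 the calls on the 6 lists numbered 3 higher and 2 lower.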

How the data were processed

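The deposited values are counts per gene symbol without normalization. The authors filtered reads with fastp 0.20.0, aligned them to GRCm38 with STAR 2.7.0f and counted them with featureCounts of Subread 1.6.4 (tools and versions from the submitters' processing notes). The library kit was stranded. The strand setting and the treatment of reads with several alignments are not given in the sources used here, so that overlapping and near-identical genes are uncertain. Depth was 19640401 to 22886153 counts per library. The floor for genes without a count (3 counts) covers counting error only. Standard errors of log2 fold changes come from the edgeR fit and include the spread among mice. The labels give the old age as 92.5 weeks.

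Genes were filtered with filterByExpr, which kept 14614 of 28011 genes with a count, and the age groups were compared with edgeR 4.0.16 (robust quasi-likelihood test, TMM scaling, no covariate, R 4.3.3). P-values were adjusted by Benjamini-Hochberg over all tested genes and called below 0.05. Normalized counts are counts divided by DESeq2 1.42.0 size factors. RPKM used TMM-scaled libraries and GENCODE M21 exon lengths, for which 58 members had a single match and 4 several. Marker sums in CPM were compared with exact permutation tests (scipy 1.17.1). Alternatives were DESeq2, limma-voom (limma 3.58.1), other scalings and filters, the replicate number as a block, a cutoff of 0.01, and leaving out each mouse; the omission of the old aortae 2 and 3 together was added after the data were seen. Libraries of 1 group differed 8.06 to 58.8 times more than counting error (chi-square over its degrees of freedom), so that none was a duplicate. The pairs with the old aorta 2 had the highest values, from 36.5 to 58.8, and the other old pairs reached at most 22.5. The test was checked on simulated counts.

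Members are given in every library where called, with the highest receptor per length; other tested members are given by log2 fold change, and at most 3 called genes per pathway list by smallest p. Any other gene named was chosen with its values in view. The members and lists were chosen with earlier results of these data known. Promoters are from RefSeq (GRCm38.p6). The values of 1 receptor are not reported here, and it is left out of the figures; it is included in the counts.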

Additional observations from a re-analysis of the deposited data

Results flagged for a closer look

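In 54 groups of 5 mice (27 tested members, young and old), the highest or lowest mouse was compared with the nearest other mouse, and 6 values stood apart by Dixon's criterion (a gap over 0.71 of the range), which chance alone gives in about 1 of 20 groups. *Ackr4* had 199 normalized counts in the young aorta 1, with the next at 49.2. *Ackr1* had 129 in the old aorta 2, with the next at 43.8. *Ackr3* had 1896 in the old aorta 3, with the next at 1429. *Ccl11* had 416 in the young aorta 1, with the next at 334. *Ccl25* had 62.1 in the old aorta 2, with the next at 45.7. *Cxcl12* had 5119 in the old aorta 1, the lowest of the old group, with the next at 6847. The cause was not tested for any of them.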

How the results depend on the processing

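The 7 ligands called higher numbered 5 to 8 over 20 alternatives, and 0 ligands were called lower in any. *Ccl8*, *Ccl11*, *Ccl12*, *Cx3cl1* and *Cxcl12* kept their calls in every alternative fit at a threshold of 0.05. Over 513 alternative fits of the 27 tested members, 472 kept direction and side of the threshold, 4 lost a call, 17 gained one and 20 turned sign, in 6 members that were not called. Receptors called higher numbered 2 with DESeq2, 1 with a mean count of at least 10, and 0 to 1 with each mouse left out. Receptors called lower numbered 3 with DESeq2, 1 with limma-voom and 0 to 2 with each mouse left out. All genes called numbered 658 at a threshold of 0.01, 954 without the old aortae 2 and 3, and 1132 to 2367 with each mouse left out. Pathway genes called higher numbered 17 with DESeq2, 2 at 0.01, 3 without the old aortae 2 and 3, and 8 to 17 with each mouse left out, and those called lower 1, 2 and 3 to 6 for the last 3 of these. The cause of these changes was not tested.

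With the replicate number as a block, 2 receptors were called higher (among them *Cx3cr1*), 1 lower (*Ackr3*), and 3 pathway genes lower. The numbers do not pair the mice: same-numbered mice correlated at -0.30 to 0.13 in their deviations from the group means, and 2 of 5 correlated best with their own number.

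*Ackr1* was at 0.00035 (log2) with upper-quartile scaling, and without the old aortae 2 and 3 *Ccl27a* was at -0.0202, *Ccl25* at -0.0237 and *Ccl9* at -0.0414. With each mouse left out the log2 fold change ranged from -0.71 to 0.17 for *Ackr1*, -0.16 to 0.0671 for *Ccl19*, -0.31 to 0.13 for *Cxcl14*, -0.0797 to 0.10 for *Ccl27a* and -0.0145 to 0.16 for *Ccl25*. The log2 ratio of marker sums ranged from -0.36 to 0.25 for red blood cells (-0.0068 with sums of normalized counts), -0.19 to 0.0439 for lymphatic endothelium and -0.0568 to 1.23 for natural killer cells. With 1 mouse left out the exact test of 15 lists has fewer permutations, and marker lists that passed reached adjusted p-values of up to 0.0952.

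Under the scalings and tools tried, the median log2 fold change of all tested genes lay between -0.0046 and 0.031. The 28 members below the filter and the 7 without a count had too few counts to compare, and the counts of near-identical copies among them are uncertain.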
